A study of Mus musculus with 4 samples.

Results

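Integrins and the adhesion molecules they work with were read from 68 array probes of 44 genes, out of 55681 probes and 22296 named genes on the array. The genes were chosen by name: all probes named for an integrin alpha or beta subunit (Itga, Itgb) or an intercellular adhesion molecule (Icam), and those named Vcam1, Madcam1, Pecam1, Sele, Selp, Selplg, Cd44, Cd2 or Cd48. Cd58 stood on the same list of names and was matched by no probe. The rule also takes in 4 genes that do not encode a receptor subunit (Itgb1bp1, Itgb1bp2, Itgb3bp and Itgbl1).

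RNA came from Tregs, the CD4 T cells that hold immune responses in check, of male C57BL/6 mice, either wild type (WT) or deltaDC. Each genotype was sampled in spleen and in thymus, which gives 4 groups with 1 array each. Cells of 3 mice were pooled per genotype, and live CD4+CD25+ cells were sorted, so the gate rested on CD25 and not on Foxp3. Splenic CD4 T cells had first been enriched by negative selection, and thymic cells by removal of cells binding an anti-CD8 antibody. The labels do not spell out deltaDC, and they give neither its allele nor the promoter that drives it, nor the age of the mice. In the field the name is used for mice that lack dendritic cells, often through a transgene under the promoter of Itgax.

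Integrins are heterodimers of an alpha and a beta subunit that hold cells to matrix or to other cells, and both chains are needed at the surface. They switch from a bent to an extended form when talin and kindlin bind the beta tail, so the amount of mRNA is only one determinant of adhesion. Tregs use them to enter tissues, to stay there and to grip antigen-presenting cells, and integrins with the alpha v chain release active TGF-beta. Selectins act earlier, when a cell rolls along a vessel wall, and bind sugars carried by proteins such as the product of Selplg.

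Values are scaled signals, that is fluorescence after each array was brought to the same 75th percentile, and differences are given on the log2 scale, where 1 is a doubling. A gene was measured in a comparison if its probe was well above background on both arrays. Where 4 signals are given with no array named, they stand in the order WT spleen, deltaDC spleen and then the thymus arrays of the same genotypes. Between repeated spots of a probe the SD was 0.35 on the log2 scale for signals under 50, 0.13 for 50 to 200, and 0.05 above 10000. The spot error beside a difference comes from these SDs. It holds no variation between mice or labellings, for which there was no replicate, so differences between 2 arrays have no p-value. All 7 T cell and Treg markers on the array, Foxp3, Cd4 and Il2ra among them, were measured and lay within 2-fold in all 4 comparisons. They were not all level, though. Il2ra, the gene of CD25, had 28920 in WT and 15521 in deltaDC spleen, a difference of -0.90. Cd4 differed by 0.50 and Foxp3 by -0.10 between the spleen genotypes. In pooled RNA of sorted cells, a lower signal from fewer cells of a type cannot be told apart from less RNA per cell.

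Of the 44 genes, 34 were well above background on all 4 arrays and 5 on some of them (Itgax, Itga11 and Itgb1bp2 on 3 arrays, Itga2 and Itgb4 on 2). The other 5 (Itga8, Itgb2l, Itgb6, Itgbl1 and the endothelial selectin Sele) were not above background on any array. Apart from Itgb2l on deltaDC spleen, their signals lay between 3.30 (Sele on WT thymus) and 7.36 (Itgb6 on WT spleen).

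**Figure D1:**
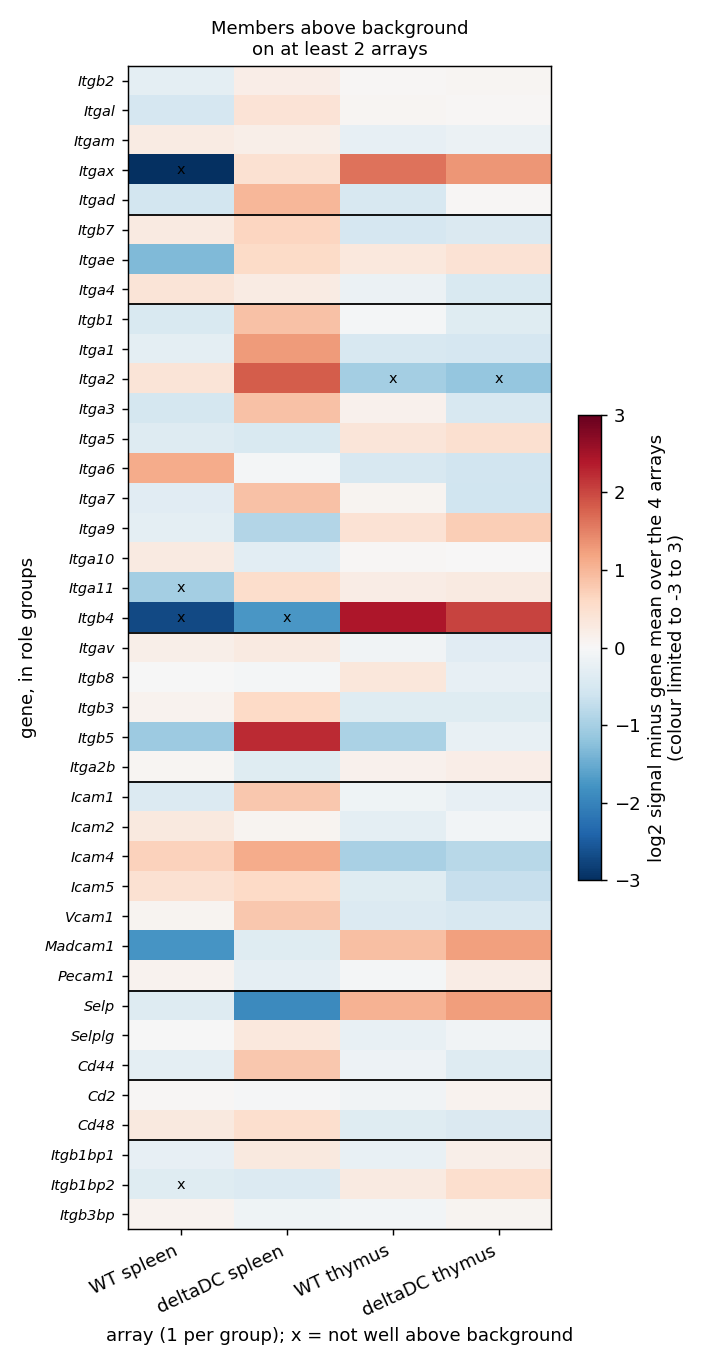
Scaled signals of the 39 members above background on at least 2 arrays, as log2 differences from each gene's mean over the 4 arrays, with genes in rows by role and the 4 arrays in columns. Crosses mark signals not well above background. The deltaDC spleen column is high for Itgb5, Itga2 and Itga1 and low for Selp, and both thymus columns are high for Itgb4, Itgax, Selp and Madcam1.

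In spleen, 11 of 35 measured members (31.4%) exceeded the WT array by 2-fold or more on the deltaDC array: Itgb5, Itgae, Itga1, Itgad, Itga2, Itga3, Madcam1, Itgb1, Icam1, Itga7 and Cd44. Among all genes measured on both spleen arrays, 6.41% were that much higher. Only Itga6 and Selp, 5.71% of the members, were at least 2-fold lower, against 2.0% of all genes. In all, 37.1% of the members and 8.41% of all genes differed by 2-fold or more. Itgax, dim on WT spleen, was higher by at least 4.81-fold. With normexp background correction, which adds an offset of 50 and so narrows differences of dim genes, 6 members were higher and 1 was lower, and the share of all genes at least 2-fold different was 4.53%. Itga1, Itga2, Itga3, Itgad, Madcam1 and Selp then no longer reached 2-fold. The median log2 difference was 0.38 over the measured members and -0.0047 over all genes, and 22 of the 35 members lay above 0.

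In thymus, none of the 38 measured members differed 2-fold between the genotypes, where 1.60% of all genes did (0.928% higher, 0.667% lower). Differences ran from -0.69 for Itga7 to 0.71 for Itgb5, with a median of 0.02 against 0.05 over all genes. These counts use the brightest probe of each gene. A dimmer probe of Itgam and one of Itga1 were over 2-fold higher on the deltaDC thymus array, as given with those genes.

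**Figure D2:**
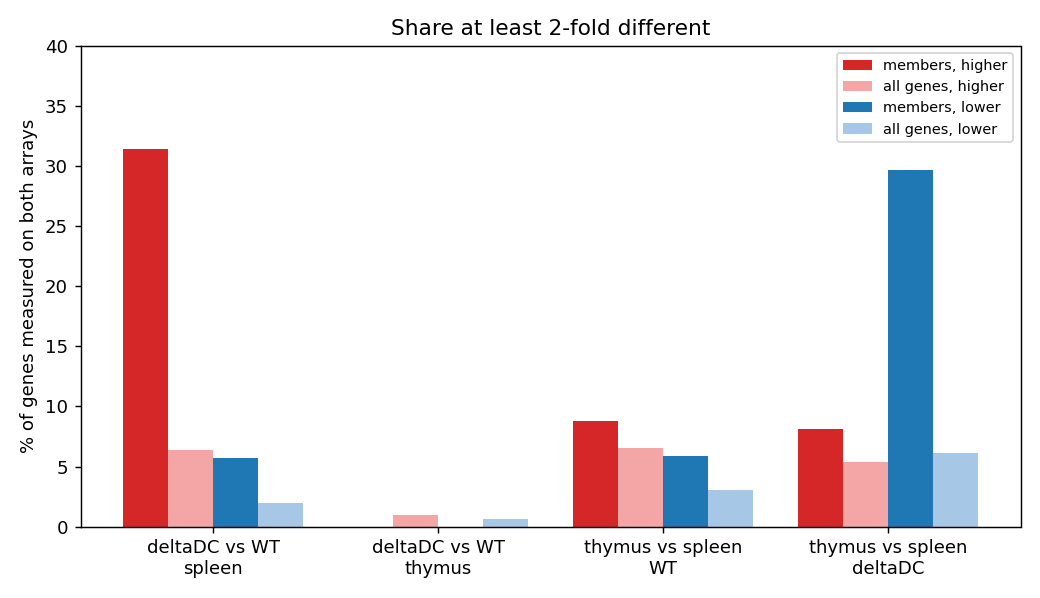
Percent of genes at least 2-fold higher (red) or lower (blue) in the 4 comparisons of 2 arrays, for the members (dark bars) and for all genes (pale bars) measured on both arrays. Members reach 31.4% higher in the spleen comparison and 29.7% lower in the comparison of deltaDC thymus with deltaDC spleen, and have no bar for thymus genotypes.

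Between the organs of WT mice, 3 of 34 measured members were at least 2-fold higher on thymus (Madcam1, Itgae and Selp) and 2 were lower (Icam4 and Itga6), 14.7% in all, against 9.54% of all genes (6.52% higher and 3.03% lower). By bound, Itgb4 and Itgax were also higher on WT thymus. In deltaDC mice, 3 of 37 members were higher on thymus (Selp, Itga9 and Madcam1; 8.11%, against 5.37% of all genes). There, 11 were lower (29.7%, against 6.15% of all genes): Itgb5, Icam4, Itga1, Itga7, Itga3, Vcam1, Icam5, Itgb1, Cd44, Itgb7 and Icam1. The share of either direction was 37.8%, against 11.5% of all genes. By bound, Itgb4 was also higher (at least 13.5-fold) and Itga2 lower (at least 4.66-fold) on deltaDC thymus. The deltaDC spleen array enters both this comparison and the spleen genotype comparison, so the lists are not independent of each other. With normexp, Icam4 and Selp in WT mice and Itga1, Itga3, Itga9 and Icam5 in deltaDC mice no longer reached 2-fold, and with quantile scaling Itgb7 in deltaDC mice did not.

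Both spleen arrays and both thymus arrays together allow the genotype difference of the organs to be set side by side. Of the 34 members above background on all 4 arrays, 12 (35.3%) had genotype differences that were at least 2-fold apart between the organs, against 8.92% of all genes. Taken with its sign, the difference deltaDC minus WT was higher in spleen for 10 of the 12, against 6.61% of all genes. For Itga6 and Selp it was higher in thymus, against 2.31% of all genes. In size the spleen difference was the larger for both: -1.16 in spleen and -0.09 in thymus for Itga6, and -1.51 and 0.23 for Selp. This contrast uses all 4 arrays and leaves nothing to test it against.

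**Figure D3:**
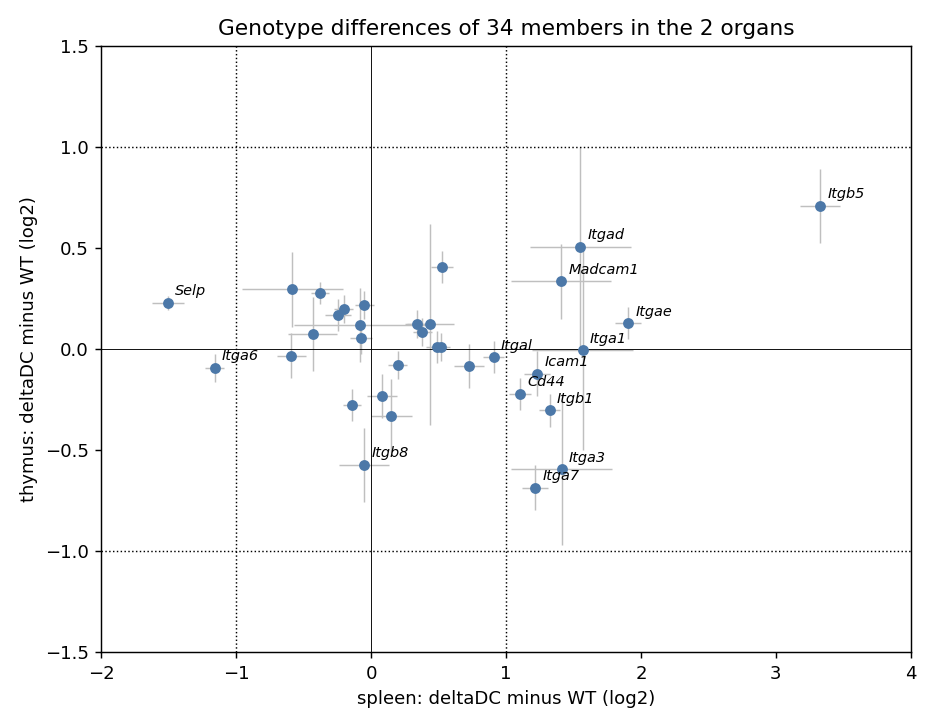
Log2 difference deltaDC minus WT in spleen (horizontal axis) against that in thymus (vertical axis) for the 34 members above background on all 4 arrays, 1 point per gene, with bars for the spot error and dotted lines at 2-fold. Points spread from -1.51 to 3.33 along the spleen axis and from -0.69 to 0.71 along the thymus axis.

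Promoters are shown for 4 of the members that were higher on the deltaDC spleen array, because they include the one with the largest difference among genes measured on both spleen arrays (Itgb5) and come from a beta chain, a pair of ligands and the alpha chain named by CD11c. The sequences are from RefSeq (GRCm38.p6), 300 bases each that end shortly after the gene start, 5′ to 3′, and capitals mark a match to a searched motif. The windows lie at chr16:33829415-33829714 on the plus strand (Itgb5), chr9:21015690-21015989 on the plus strand (Icam1), chr10:79664309-79664608 on the plus strand (Madcam1) and chr7:128129300-128129599 on the plus strand (Itgax).
Itgb5: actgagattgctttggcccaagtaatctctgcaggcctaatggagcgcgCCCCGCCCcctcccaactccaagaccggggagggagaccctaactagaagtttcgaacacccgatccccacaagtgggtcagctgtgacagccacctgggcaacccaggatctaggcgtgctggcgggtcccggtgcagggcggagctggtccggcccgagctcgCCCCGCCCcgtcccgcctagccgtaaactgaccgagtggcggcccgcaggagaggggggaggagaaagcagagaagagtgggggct
Icam1: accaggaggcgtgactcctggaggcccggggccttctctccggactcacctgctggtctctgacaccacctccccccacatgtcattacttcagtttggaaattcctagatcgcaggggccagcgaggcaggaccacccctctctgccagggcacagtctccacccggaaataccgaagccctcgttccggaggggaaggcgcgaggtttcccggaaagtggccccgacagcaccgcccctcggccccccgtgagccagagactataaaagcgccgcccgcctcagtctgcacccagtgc
Madcam1: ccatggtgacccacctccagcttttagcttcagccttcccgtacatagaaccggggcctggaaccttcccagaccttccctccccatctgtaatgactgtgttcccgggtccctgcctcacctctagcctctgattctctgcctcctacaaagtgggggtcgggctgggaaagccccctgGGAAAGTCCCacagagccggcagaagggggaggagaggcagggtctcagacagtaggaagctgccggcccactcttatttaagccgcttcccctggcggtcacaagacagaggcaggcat
Itgax: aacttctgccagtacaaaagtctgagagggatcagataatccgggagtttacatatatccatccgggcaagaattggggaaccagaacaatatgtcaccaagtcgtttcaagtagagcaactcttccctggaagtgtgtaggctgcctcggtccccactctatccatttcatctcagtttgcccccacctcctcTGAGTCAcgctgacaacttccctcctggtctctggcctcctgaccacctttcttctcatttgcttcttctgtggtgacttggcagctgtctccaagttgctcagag
The Itgb5 promoter holds the Sp1 letters GGGCGGGG on the reverse strand 2 times, from -201 and from -36 relative to the start. The Madcam1 promoter holds an NF-kB consensus on the reverse strand from -70, and the Itgax promoter holds the AP-1 letters TGANTCA, which read alike on both strands, from -56. In the Icam1 window, and in that of Itgb1, which was also higher on deltaDC spleen and is not printed, none of the 6 motifs was found. This says only that these letters are not in those windows.

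Over 32851 mouse promoters of this length, searched on both strands, GGGCGGGG stood in 17.6%, TGANTCA in 7.81% and the NF-kB consensus in 0.411%. RefSeq held 32 promoters for 30 of the 44 members. Among these, TGANTCA stood in those of Itga3, Itga9, Itgax, Sele and Selp, GGGCGGGG in those of Itga4, Itgb5 and Itgbl1, and the NF-kB consensus in that of Madcam1. The T-box letters GGTGTGA (3.98% of all promoters) stood in those of Cd48, Itga4 and Selp, and the RUNX letters TGTGGTT (5.27%) in that of Itga3. The PU.1 letters GAGGAAGT (3.20%) stood in those of Itga11, Itgav, Itgb2l, Itgb6 and Itgb7. Of the 12 members higher on deltaDC spleen by measurement or bound, 9 had a promoter in the table. TGANTCA stood in 2 of these (Itga3 and Itgax), the PU.1 and T-box letters in 0. Such matches are descriptions of letters and not binding sites.

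Leukocyte integrins share the beta 2 chain Itgb2. Itgb2 had signals of 10258 (WT) and 14656 (deltaDC) in spleen and 13045 (WT) and 13138 (deltaDC) in thymus. Its partner Itgal, which forms LFA-1, the receptor for ICAMs that stabilises the contact between a T cell and an antigen-presenting cell, had 3952, 7415, 5888 and 5732 in the same order. WT spleen was the lowest array for both chains and deltaDC spleen the highest, and both stayed under 2-fold. The genotype difference in spleen was 0.51 for Itgb2 and 0.91 for Itgal (spot error 0.08), and in thymus 0.01 and -0.04. Another Itgal probe gave 0.89 in spleen, while the dimmest one gave 0.01.

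Itgax encodes CD11c, the alpha chain best known from dendritic cells and also found on some activated lymphocytes. Its signal was 6.52 (WT, not well above background) and 93.8 (deltaDC) in spleen and 212 (WT) and 173 (deltaDC) in thymus. WT spleen alone was dim, so Itgax was at least 10.9-fold higher on WT thymus than on WT spleen, and the thymus genotypes differed by -0.29 (spot error 0.15). Itgad, an alpha chain of splenic macrophages and of some lymphocytes, had 23.7, 69.3, 25.2 and 35.8. Its difference of 1.55 in spleen (spot error 0.37) comes from signals near background.

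Itgam encodes CD11b, the alpha chain of Mac-1 on neutrophils, monocytes and NK cells, and its probes disagreed. The brightest probe had 3245, 3079, 2305 and 2394, with genotype differences of -0.08 in spleen and 0.05 in thymus. A dimmer probe of Itgam had 23.0 (WT) and 56.7 (deltaDC) in spleen and 39.7 (WT) and 109 (deltaDC) in thymus, which is 1.30 in spleen and 1.46 in thymus. The array cannot say which probe reads the Itgam transcript of these cells.

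Many but not all markers of myeloid and NK cells, which carry these alpha chains, differed on the same arrays. The summed signal of 8 neutrophil markers was 172 (WT) and 9948 (deltaDC) in spleen and 950.0 (WT) and 2458 (deltaDC) in thymus, and 2, 8, 6 and 6 of them were above background. Most of the deltaDC spleen sum came from S100a9 (6471). Between the spleen genotypes 1 was at least 2-fold higher by measurement and 6 by bound, while Elane was level on all arrays (113, 112, 115 and 113). The sum of 8 NK markers was 4096, 30670, 13384 and 15947. On deltaDC spleen, 4 of the 8 were over 2-fold above WT spleen by measurement and 2 by bound. Most of the deltaDC spleen sum came from Nkg7 (23599). Most of the WT and deltaDC thymus sums came from Nkg7 (7320 and 7531) and Gzma (5438 and 7355). Ncr1 and Klrk1 were not above background on either thymus array. For 7 macrophage and monocyte markers on the array the sums were 1422, 2271, 1157 and 1548, of which Csf1r had 945, 1502, 555 and 732. Between the spleen genotypes 1 of the 7 (Adgre1) was at least 2-fold higher by measurement and 1 (Lyz2) by bound. Cd68 was level there (325 and 323), and Cd14 had 35.8 in WT and 25.7 in deltaDC spleen. Of 8 dendritic cell markers, 3, 5, 6 and 5 were above background, and the sums of 103701, 64269, 85583 and 92427 came almost wholly from the probes of Siglech and of Ccr7, which T cells also express. Zbtb46, the factor of conventional dendritic cells, had 17.0 (not well above background), 90.7, 74.6 and 65.7. The other markers did not share 1 pattern. Flt3 had 8.69 (not well above background), 24.4, 106 and 175, and Batf3 had 116, 536, 69.7 and 114. Cd209a was above background on WT thymus alone (119), at least 7.57-fold over deltaDC thymus. The defining genes Xcr1 and Clec9a were not above background on any array. The part of such cells in the values of Itgax, Itgad, Itgam and Itga2 was not tested.

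The beta 7 chain pairs with Itga4 to form the gut-homing receptor for MAdCAM-1 and with Itgae (CD103) to form the receptor for E-cadherin, which marks tissue-retained T cells and a share of Tregs. For Itgae the spot error between the spleen arrays was 0.10, which holds no variation between mice or labellings. It is read by 1 probe, which spans 986 bases of genome at chr11:72945236-72946221 (mm9, plus strand), more than its own 60 bases. A probe that spans more genome than its own length matches only the joined transcript in full, so its sequence is shown.
Itgae probe: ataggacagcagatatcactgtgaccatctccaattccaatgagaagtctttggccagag
Itgae had signals of 552 (WT) and 2069 (deltaDC) in spleen and 1714 (WT) and 1872 (deltaDC) in thymus. WT spleen was at least 2-fold below each of the other 3 arrays, which lay close to each other. The genotype difference was 1.91 in spleen and 0.13 in thymus, and thymus stood above spleen by 1.64 in WT mice and not in deltaDC mice (-0.14).

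The partner Itgb7 did not follow Itgae between the arrays. Itgb7 had 72859 (WT) and 94684 (deltaDC) in spleen and 42419 (WT) and 44937 (deltaDC) in thymus, so both spleen arrays stood above both thymus arrays. Thymus minus spleen was -0.78 in WT and -1.08 in deltaDC mice (spot error 0.07), and the genotypes differed by 0.38 in spleen and 0.08 in thymus (-0.08 with quantile scaling and with the deposited matrix). Itga4 had 13360, 12113, 9097 and 7512, again with both spleen arrays above the thymus arrays, and genotype differences of -0.14 and -0.28. Cdh1, which encodes the ligand E-cadherin, was not above background on either spleen array and had 106 on WT thymus and 97.5 on deltaDC thymus.

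Itgb1 is the common beta chain of the matrix-binding integrins, and its amount on T cells goes up after activation. It was read by a bright probe that spans 5896 bases at chr8:131250081-131255976 (mm9, plus strand).
Itgb1 probe: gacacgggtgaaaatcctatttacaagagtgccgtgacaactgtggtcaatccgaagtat
Itgb1 had signals of 1972 (WT) and 4934 (deltaDC) in spleen and 2597 (WT) and 2104 (deltaDC) in thymus. deltaDC spleen stood above the other 3 arrays, by 1.32 over WT spleen (spot error 0.08), and the thymus difference was -0.30. A second Itgb1 probe gave 1.28 in spleen and -0.40 in thymus.

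Alpha partners of Itgb1 fell into those that were high on deltaDC spleen together with it and those that were not. Itga3, a laminin-binding chain, had 40.4 (WT) and 108 (deltaDC) in spleen and 63.4 (WT) and 42.0 (deltaDC) in thymus, a difference of 1.41 in spleen (spot error 0.37) and of -0.59 in thymus. Itga7, another laminin-binding chain, had 447, 1039, 601 and 373, which is 1.22 in spleen (spot error 0.10) and -0.69 in thymus (spot error 0.11). Both were highest on deltaDC spleen, and Itga7 was the member with the lowest thymus difference.

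The collagen-binding chains Itga1 (CD49a, on tissue-resident T cells) and Itga2 (CD49b, also a common NK cell marker) were dim. Itga2 had 27.5 on WT spleen and 73.5 on deltaDC spleen, a difference of 1.42 (spot error 0.37), and was not well above background on the thymus arrays (10.3 and 9.34). It was thus at least 4.66-fold lower on deltaDC thymus than on deltaDC spleen. Itga1 was read by 2 probes on the minus strand of chromosome 13 (mm9), at chr13:115821387-115825525 and chr13:115756765-115758419, which are shown because they differ.
Itga1 probe 1: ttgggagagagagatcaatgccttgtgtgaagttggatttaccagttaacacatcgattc
Itga1 probe 2: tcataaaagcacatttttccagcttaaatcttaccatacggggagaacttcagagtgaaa
Probe 1, which stands for the gene in the counts, had 24.3, 72.0, 21.1 and 21.1, with deltaDC spleen above the other 3 arrays (1.57 in spleen, -0.0043 in thymus). Probe 2 was not above background on either WT array (3.95 and 4.01) and had 134 on deltaDC spleen and 56.6 on deltaDC thymus. By probe 2, Itga1 was therefore at least 6.85-fold higher in deltaDC spleen and at least 3.61-fold higher in deltaDC thymus than in the WT organ.

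Itga6, a laminin receptor chain that T cells also carry, was the only integrin subunit at least 2-fold lower on deltaDC spleen. It had 36764 (WT) and 16458 (deltaDC) in spleen and 12248 (WT) and 11494 (deltaDC) in thymus. WT spleen was over 2-fold above each of the other 3 arrays, among which deltaDC spleen came closest to it. A second, dimmer Itga6 probe (387, 277, 353 and 377) gave -0.48 between the spleen arrays and -0.13 between the WT organs, under 2-fold in both.

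Itgb4, which pairs with Itga6 in the hemidesmosomes of epithelia, was above background on the thymus arrays alone. It had 8.38 and 16.5 on WT and deltaDC spleen, both not well above background, and 295 and 223 on WT and deltaDC thymus. The fold between WT thymus and WT spleen was at least 15.1, and the genotypes in thymus differed by -0.40 (spot error 0.11). Of 6 thymic epithelial markers, 1, 1, 3 and 4 were above background, with summed signals of 118, 135, 271 and 424. Foxn1 and Aire were not above background on any array, and Epcam had 81.4, 100, 99.4 and 106. Krt8 was above background on the thymus arrays alone (119 in WT and 223 in deltaDC mice). On the thymus arrays, 6 markers of CD8 T cells and immature thymocytes summed to 53767 and 49255, against 754 and 591 on the spleen arrays. Most of the thymus sums came from Dntt (46242 in WT and 42115 in deltaDC mice). Cd8a had 103 and 202 on the thymus arrays and was not above background on the spleen arrays. Cd8b1 had 633 and 748 in thymus and 372 and 304 in spleen. The part of either cell type in the organ differences of Itgb4 and the other members was not tested.

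The remaining partners of Itgb1 were less different between genotypes. Itga9 had 61.7 (WT) and 41.2 (deltaDC) in spleen and 103 (WT) and 127 (deltaDC) in thymus, and stood 1.62 higher (spot error 0.37) on deltaDC thymus than on deltaDC spleen. Itga5, the fibronectin receptor chain, had 46.6, 44.1, 78.3 and 85.1, with both thymus arrays above both spleen arrays by 0.75 in WT and 0.95 in deltaDC mice. Itga10, a collagen-binding chain, had 529, 351, 451 and 441. Itga11 lay between 10.4, not well above background, and 30.6.

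Among integrins that pair with alpha v or bind the RGD letters of matrix proteins, Itgb5 showed the largest genotype difference of the members measured on both arrays, a ranking that leaves out the bounds of Itgax and of probe 2 of Itga1. Itgb5 pairs with Itgav to bind vitronectin, and it is the gene whose promoter with both Sp1 matches is printed above. It had 85.6 (WT) and 859 (deltaDC) in spleen and 94.4 (WT) and 154 (deltaDC) in thymus. deltaDC spleen stood far above the other 3 arrays, with 3.33 over WT spleen (spot error 0.15), and deltaDC thymus stood 0.71 above WT thymus (spot error 0.18). Its partner Itgav had 340, 359, 278 and 237, and differed by 0.08 in spleen and -0.23 in thymus, while its other probe gave 0.59 and 0.12.

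Itgb8, which with Itgav lets Tregs activate TGF-beta, had 109 (WT) and 105 (deltaDC) in spleen and 138 (WT) and 93.0 (deltaDC) in thymus. Its genotype difference was -0.57 in thymus (spot error 0.18). Itgb3 and Itga2b form the platelet receptor for fibrinogen. Itgb3 had 5199, 7274, 3727 and 3755, with 0.48 in spleen and 0.01 in thymus, and a dimmer Itgb3 probe gave 0.69 and -0.66. Itga2b had 73.8, 54.6, 76.8 and 80.8. Of 8 platelet markers, 1 was above background on WT spleen, 4 on deltaDC spleen and none on the thymus arrays, and Gp1ba and Tubb1 were not above background on any array. The summed platelet signals were 105, 210.4, 45.9 and 33.1.

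**Figure D4:**
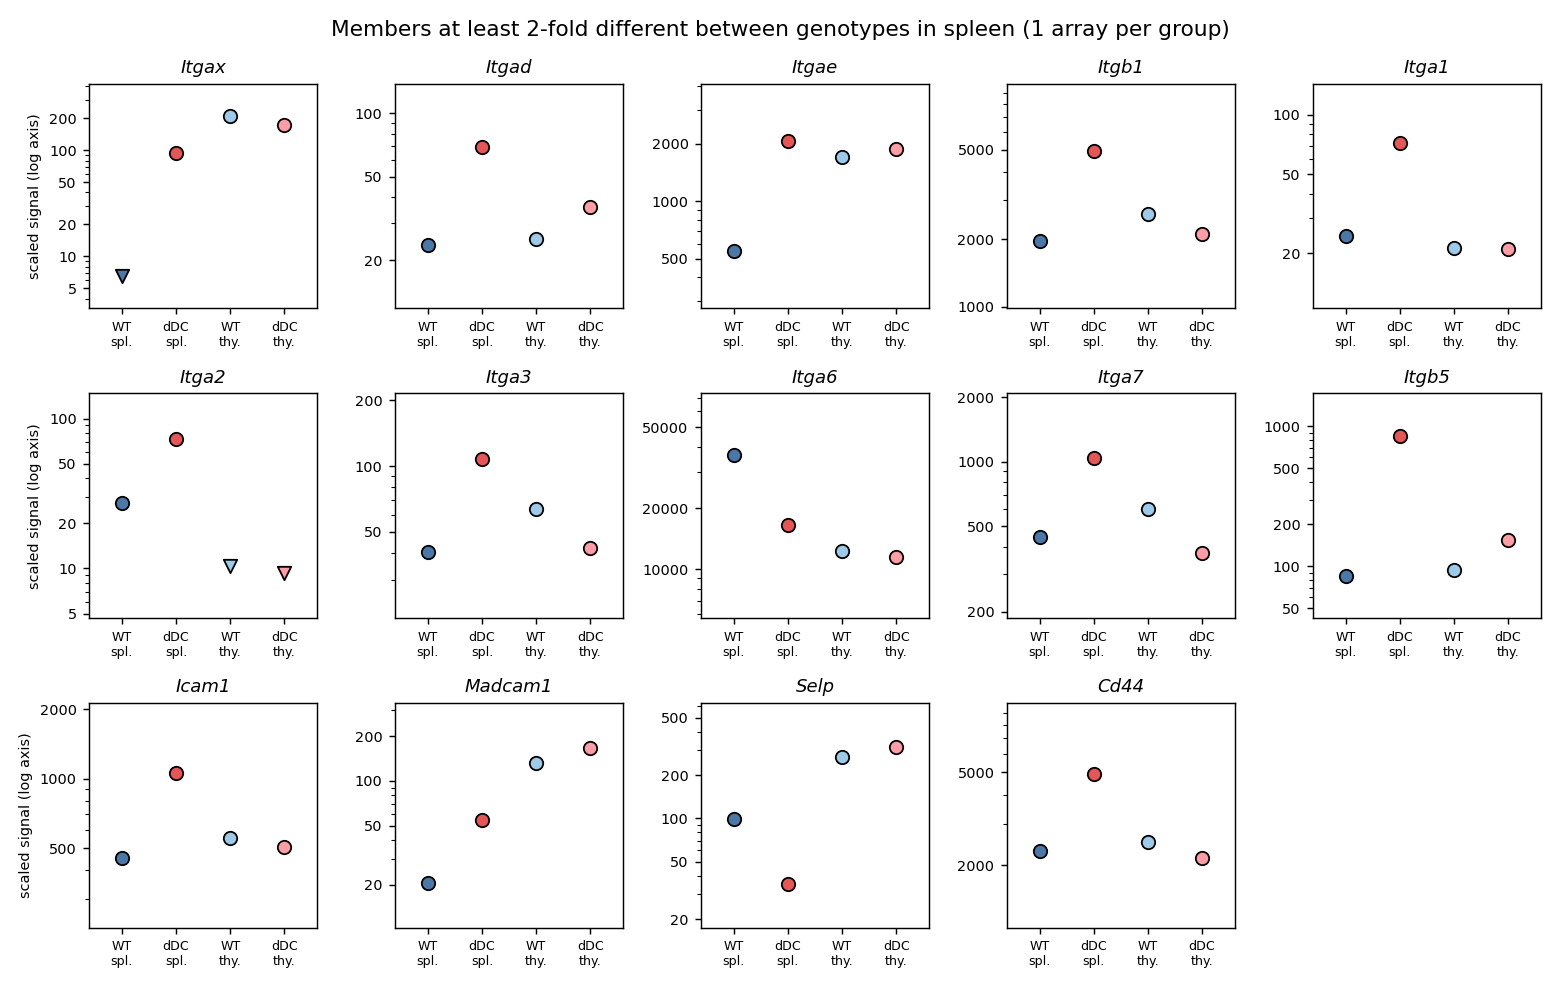
Scaled signals on a log axis of the 14 members at least 2-fold different between deltaDC (dDC) and WT spleen by measurement or bound, 1 panel per gene and 1 point per array (spl., spleen; thy., thymus). Triangles are signals not well above background. In 10 panels deltaDC spleen is the highest point (not for Itgax, Itga6, Madcam1 and Selp), and in that of Itgae both thymus arrays lie just below it.

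The ligands of the immunoglobulin family are bound by integrins on the opposite cell, and T cells carry some of them as well. Icam1, a ligand of LFA-1, had 452 (WT) and 1061 (deltaDC) in spleen and 551 (WT) and 507 (deltaDC) in thymus. deltaDC spleen was again the high array, by 1.23 over WT spleen (spot error 0.10), and the thymus arrays differed by -0.12. Icam2, the constitutive ligand of LFA-1, had 22808, 19809, 15319 and 17575, with -0.20 in spleen and 0.20 in thymus.

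Icam4 and Icam5 lie next to Icam1 on mouse chromosome 9 and did not follow it between the genotypes. Icam4, mainly known from red cells, had 91.7 (WT) and 124 (deltaDC) in spleen and 29.3 (WT) and 31.9 (deltaDC) in thymus, so both spleen arrays stood above both thymus arrays (-1.65 in WT and -1.96 in deltaDC mice, spot error 0.37 in both). Icam5, mainly known from neurons, had 195, 217, 112 and 89.0, with -0.80 and -1.28. Their genotype differences in spleen were 0.43 and 0.15.

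Vcam1, the ligand of alpha 4 beta 1 on activated endothelium and on stromal and macrophage cells, had 387 (WT) and 639 (deltaDC) in spleen and 277 (WT) and 262 (deltaDC) in thymus. It stood 1.29 lower on deltaDC thymus than on deltaDC spleen (spot error 0.11), and a dimmer Vcam1 probe gave -0.74. Madcam1, the ligand of alpha 4 beta 7 on vessels of gut and of the splenic marginal sinus, had 20.5, 54.5, 132 and 166 by its brighter probe. Its other probe was not above background on any array (4.14, 5.79, 8.79 and 9.63). By the brighter Madcam1 probe the thymus arrays were the higher ones, by 2.69 in WT and 1.61 in deltaDC mice, while the spleen genotypes differed by 1.41 (spot error 0.37) at signals near background. Pecam1, an adhesion molecule of endothelium, platelets and some leukocytes, had 1219, 937, 1076 and 1304.

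Of 8 endothelial markers, 1, 2, 2 and 3 were above background. The defining genes Cdh5, Tek and Tie1 were not above background on any array, while Ptprb was above it on deltaDC thymus alone (166, at least 10.6-fold over WT thymus). Plvap had 13.5 (not well above background), 19.1, 22.4 and 41.2. The summed endothelial signal lay between 785 and 937, most of it from Kdr, which had 859, 849, 736 and 712. Among stromal markers, 1, 2, 3 and 5 of 7 were above background, and their sums were 78.9 and 75.6 on the spleen arrays and 512 and 540 on the thymus arrays.

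Selp, the P-selectin of platelets and endothelium, was spotted 10 times on each array and so has the best-known error of the dim members. In spleen it had 99.4 in WT (spots from 84.2 to 122) and 35.0 in deltaDC mice (28.0 to 43.6). In thymus it had 268 in WT (243 to 293) and 314 in deltaDC mice (283 to 338). The spots of deltaDC spleen lay below those of each other array. The genotype difference was -1.51 in spleen (spot error 0.12) and 0.23 in thymus (spot error 0.03), and thymus stood above spleen by 1.43 in WT and 3.17 in deltaDC mice. On deltaDC spleen, 4 of 8 platelet markers were above background against 1 on WT spleen. Only Pf4 was measured on both of these arrays (44.9 in WT and 105 in deltaDC mice). None of the other platelet markers was 2-fold higher by bound. The platelet chain Itga2b had 73.8 in WT and 54.6 in deltaDC spleen. The part of platelets in the values of Selp was not tested.

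**Figure D5:**
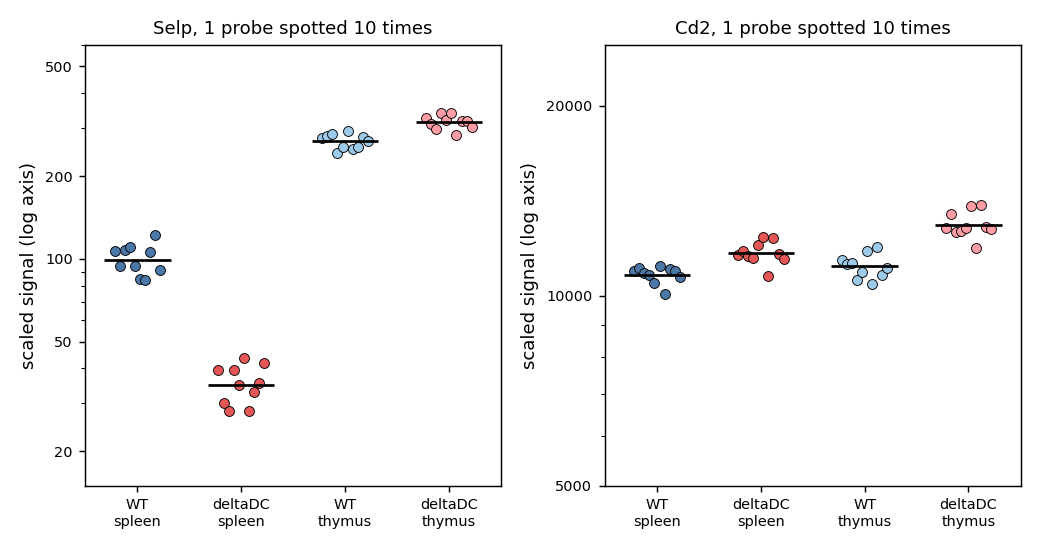
Scaled signal of each repeated spot of the members spotted 10 times, on a log axis, by array, with 1 point per spot. Selp spots of deltaDC spleen (28.0 to 43.6) lie apart from those of the other 3 arrays, while the spots of Cd2 have means between 10801 on WT spleen and 12958 on deltaDC thymus.

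Selplg, the selectin ligand PSGL-1 that activated T cells use to roll on vessel walls, had 33442 (WT) and 42233 (deltaDC) in spleen and 28943 (WT) and 31514 (deltaDC) in thymus. Its genotype differences were 0.34 in spleen and 0.12 in thymus, the latter -0.02 with quantile scaling and -0.03 with the deposited matrix. Cd44, the hyaluronan receptor that marks activated and memory T cells, had 2304, 4946, 2513 and 2157. deltaDC spleen was the high array, by 1.10 over WT spleen (spot error 0.08), and thymus differed by -0.22. A second bright Cd44 probe gave 1.12 and -0.24, while the spleen difference was 0.48 and -0.14 by its dim probes.

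The CD2 family showed little difference between the genotypes. Cd2, which strengthens the T cell contact, had 51028 (WT) and 49223 (deltaDC) in spleen and 46531 (WT) and 54054 (deltaDC) in thymus. Its probe with 10 spots gave 0.12 in spleen and 0.22 in thymus. Cd48, the mouse ligand of Cd2, had 19352, 22163, 12295 and 11626, so that both thymus arrays were lower, by -0.65 in WT and -0.93 in deltaDC mice.

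Of the genes named after integrins that encode other proteins, those measured also lay within 2-fold in each comparison. Itgb1bp1, a protein that binds the beta 1 tail and slows its activation, had 2262 (WT) and 3254 (deltaDC) in spleen and 2284 (WT) and 3028 (deltaDC) in thymus, with genotype differences of 0.52 and 0.41. Its other probe had 208, 175, 166 and 150.3 and went the other way, with -0.25 in spleen and -0.14 in thymus. Itgb3bp had between 996 and 1181, and Itgb1bp2 between 17.5 and 32.7.

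As a description, alpha and beta chains of a pair often differed in unequal measure between the spleen genotypes. The alpha E and beta 7 chains differed by 1.91 and 0.38, and alpha v and beta 5 by 0.08 and 3.33. For alpha 4 and beta 1 the values were -0.14 and 1.32, and for alpha 6 and beta 1 -1.16 and 1.32. Closer values were seen for alpha 3 with beta 1 (1.41 and 1.32) and alpha 7 with beta 1 (1.22 and 1.32). The same held for alpha 2 with beta 1 (1.42 and 1.32) and, by probe 1, alpha 1 with beta 1 (1.57 and 1.32). The spot error of the dim alpha 1, alpha 2 and alpha 3 chains was 0.37, and probe 2 of Itga1 was at least 6.85-fold higher.

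An additive model of genotype and organ, fitted with limma over the 4 arrays and 13491 genes, left 1 residual degree of freedom. It assumes the same genotype difference in both organs. None of 39 fitted members passed a Benjamini-Hochberg adjusted p of 0.05 for the organ, where 0.474% of all genes did, and 13 had an unadjusted p under 0.05 (20.2% of all genes). The lowest limma adjusted p were those of Icam4 (0.0914) and Itgb4 (0.098). For the genotype, none of the members and 0.00% of all genes passed, and 1 member had an unadjusted p under 0.05, Itgb1bp1 (limma adjusted p 0.806), against 4.37% of all genes.

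Beside the receptors, 3 lists of pathway genes were read. Of 41 genes of integrin activation and signalling, 34 were measured on both spleen arrays. Of these, 1 was at least 2-fold higher and 1 lower on deltaDC spleen, where 6.41% and 2.0% of all genes were. Vcl, the talin-binding protein vinculin, was higher at 1.67 and Ptk2, focal adhesion kinase, was lower at -1.28 on deltaDC spleen. Tln1, the talin that switches integrins on, differed by 0.17 and Fermt3, the leukocyte kindlin, by 0.41. In thymus none of 35 measured genes differed 2-fold between genotypes, where 1.60% of all genes did. Rapgef3, an exchange factor that activates Rap1, had 302 (WT) and 203 (deltaDC) in spleen and 5272 (WT) and 5043 (deltaDC) in thymus. It was higher on thymus by 4.12 in WT and 4.63 in deltaDC mice.

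Enzymes that build the sugars bound by selectins were measured for 11 of 15 genes on both spleen arrays, and 4 of these were higher on deltaDC spleen by 2-fold or more (6.41% of all genes), none lower. Fut7, the fucosyltransferase that T cells need to make selectin ligands, had 797 (WT) and 6099 (deltaDC) in spleen and 1213 (WT) and 1092 (deltaDC) in thymus, which is 2.94 in spleen and -0.15 in thymus. St3gal6, a sialyltransferase, differed by 2.71, Gcnt1, the core 2 branching enzyme, by 2.50 and Chst2, a sulfotransferase, by 1.27 in spleen. Fut4 was higher there by at least 6.46-fold. In thymus none of 12 differed 2-fold between genotypes (1.60% of all genes), and on deltaDC thymus 6 of 12 were lower than on deltaDC spleen (6.15% of all genes). The list's median difference in spleen was 0.54.

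Of 50 genes of matrix, surface ligands and other adhesion molecules on the array, 22 were measured on both spleen arrays, 3 of them higher and 2 lower on deltaDC spleen (6.41% and 2.0% of all genes). Adam8, a sheddase of adhesion molecules, had 938 (WT) and 12901 (deltaDC) in spleen and 515 (WT) and 600.2 (deltaDC) in thymus (3.78 in spleen). Alcam, the ligand of Cd6, differed by 1.09, Lrrc32, which holds latent TGF-beta on Tregs, by -1.07 and the laminin chain Lama5 by -1.06. Fn1, fibronectin, was higher on deltaDC spleen by at least 5.90-fold. In thymus, 2 of 29 genes were higher on the deltaDC array (0.928% of all genes), the laminin chain Lamb1 (2.71) and Cd34, a sialomucin of endothelium and progenitors (1.52). By bound, Lama4 (at least 2.47-fold), Col1a1 (2.11-fold) and Col3a1 (2.68-fold) were higher there as well.

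Different probes of 1 gene did not always give the same picture. Of 20 members with several probes, 15 had at least 2 measured, and in 7 of these the probes lay on both sides of 2-fold in some comparison. That was the case in 10 of 55 pairs of gene and comparison, and the median spread between probes was 0.27.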

How the data were processed

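Per the labels, RNA of sorted Tregs pooled from 3 mice per genotype was labelled with Cy3 and hybridised to 4 one-colour arrays on 1 slide. The deposited scanner tables give each spot's fluorescence intensity as read by Agilent Feature Extraction 10.7.3.1, background-subtracted and not scaled between arrays, and other columns that flag spots, per the file headers. A second deposited table holds quantile-normalized log2 values, per its header. Each matrix column correlated best with its own array (Pearson r across genes 0.997, 0.997, 0.996 and 0.997), its medians were 4.10, 4.11, 4.15 and 4.10, and its offset is unknown.

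Outlier spots (110 to 168 per array) were removed, and 0 were saturated. From log2 intensity the 75th percentile of the array (340.2 and 391 for WT and deltaDC spleen, 407 and 418 for WT and deltaDC thymus) was subtracted, and the geometric mean of the 4 was put back, which gives the scaled signal. Spots well above background made up 48.7% to 50.7%. Repeated spots were averaged, and the brightest probe by mean stood for a gene. Probes were named by RefSeq accession (27509 probes) or current symbol (GRCm38.p6). Probe coordinates are on mm9. The annotation of exons was not used here.

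Genes well above background on both arrays were counted at 2-fold. Genes above background on 1 array got a bound against the higher of their dim signal and the lowest signal well above background (15.0 to 19.5). The additive fit used limma 3.58.1 (lmFit, eBayes, R 4.3.3) on genes above background on at least 2 arrays (prior degrees of freedom 1.84) and was tested on simulated data. Alternatives were normexp (offset 50), quantile and median scaling, the deposited matrix, filters on dim genes and the median over probes.

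Named were members at least 2-fold different in some comparison by measurement or bound, and members known for T cell adhesion whatever their values (29 in all). The other members are given more briefly, and genes of the pathway lists by size of difference, with Tln1, Fermt3 and Cdh1 added after their values were seen. Members and lists were chosen with earlier results of these data known.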

Additional observations from a re-analysis of the deposited data

Results flagged for a closer look

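In 7 members the genotype difference had opposite signs in the organs, each by more than 2 spot errors, and the difference between organs was not tested. The share of all genes that meet this rule was not computed, so the count cannot be called high or low. Cd44 differed by 1.10 in spleen and -0.22 in thymus, so that thymus minus spleen was -1.32. For Itga7 the values were 1.22 and -0.69 (-1.90), and for Itgb1 they were 1.32 and -0.30 (-1.63). Selp went the other way, with -1.51 in spleen and 0.23 in thymus (1.74), as did Pecam1 with -0.38 and 0.28 (0.66), Itgb3bp with -0.25 and 0.17 (0.41) and Icam2 with -0.20 and 0.20 (0.40). For Icam2 the thymus value was 0.07 with quantile scaling and with the deposited matrix, under 2 spot errors. For Itgb3bp at least 1 of the values lay under 2 spot errors, or had the other sign, in each of the 5 alternatives that change values. The other 5 members met the criterion in all of these.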

How the results depend on the processing

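No paired analysis was possible because each group had 1 array and the labels give no replicate numbers, although the additive fit does compare the organs within the pool of each genotype. For the same reason no array could be left out. With normexp, which keeps a floor under dim signals, the members at least 2-fold different went from 13 to 7 between spleen genotypes, from 5 to 3 between WT organs and from 12 to 7 for genotype differences that were 2-fold apart between organs, and 1 member instead of 0 (Itgb4) passed for the organ in the fit. Without the filter on dim genes the WT organ count was 9. With the median over probes the thymus genotype count was 2 (Itga1 at 1.91 and Itgam at 1.46). Of 32 measured calls, 20 stayed at least 2-fold with normexp, 31 with quantile scaling (Itgb7 between deltaDC organs was lost), all 32 with median scaling and with the deposited matrix, and 27 with the median over probes. The 12 lost with normexp were those of Itgad, Itga2 and Madcam1 between spleen genotypes, Itga1 and Itga3 there and between deltaDC organs, Selp between spleen genotypes and between WT organs, Icam4 between WT organs, and Icam5 and Itga9 between deltaDC organs. The 5 lost with the median over probes were Cd44 (spleen genotypes and deltaDC organs), Itga6 (spleen genotypes and WT organs) and Madcam1 (spleen genotypes). Over all genes, the organ fit called 64, against 213 with normexp and 0 in each of the other alternatives. Among 580 values of the 29 named members under alternatives, 443 moved by less than the spot error and 137 by more. No difference of 2-fold or more changed sign. Of the smaller ones 23, in 11 genes and none beyond 0.21 in size, did, among them Cd2 between WT organs (-0.13, but 0.20 with quantile scaling and 0.32 with the deposited matrix) and Selplg there (-0.21, but 0.06 and 0.02). Signals under 50, as of Itga1, Itga2, Itgad and Icam4, are limited by a spot SD of 0.35.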
